A study of Danio rerio with 6 samples.

Results

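The genes described here are the cyclins, the cyclin-dependent kinases (CDKs) and genes with related names or symbols that the study listed as injury-responsive in Müller glia (MG) of the zebrafish retina. They are the union of the cyclin and the CDK lists given for the mycb experiment, 12 and 21 genes, and make up 33 of the 23510 genes in the count table. All 33 passed the filter on low counts, as did 20329 genes in all. RNAseq had been carried out on 6 libraries of GFP+ MG purified by fluorescence-activated cell sorting (FACS) from gfap:GFP retinas. The groups were uninjured Wt, Wt at 2 days post injury (2 dpi) and mycb mutant (mycb-/-) at 2 dpi, with 2 libraries in each. All 3 groups carried the gfap:GFP transgene, in which the promoter of a glial filament gene drives GFP, and a sort for GFP does not separate glia from the progenitors that derive from them. Injured retinas had received multiple needle pokes, each library pooled cells of several retinas, and the mutant allele is a germline frameshift deletion in mycb made with CRISPR. No uninjured mutant group was analysed, so a genotype difference already present before injury and a difference in the response to injury cannot be told apart. The treatment label of the injured Wt samples reads none, against their title and source, which were followed.

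Cyclins are regulatory subunits that bind CDKs and switch on their kinase activity, and many of them are made and destroyed once in every cell cycle. D-type cyclins with CDK4 or CDK6 carry a cell out of G1, cyclin E and cyclin A with CDK2 drive DNA synthesis, and cyclin A and cyclin B with CDK1 drive entry into mitosis, while the CIP/KIP proteins bind these complexes and hold them back. Other members of both families work outside the cycle, in transcription, in neurons or at the centrosome. In the zebrafish retina, injury leads quiescent MG to re-enter the cell cycle and to divide into progenitors of new neurons.

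Values are CPM, the counts of a gene relative to the total of its library, scaled by the TMM method, and genes are compared only with themselves because gene lengths were not used. A gene was called changed where edgeR's quasi-likelihood test gave a Benjamini-Hochberg adjusted p of at most 0.05 over all 20329 genes and a log2 fold change beyond 0.5 in either direction. Libraries held 47088844 to 64353562 counts. The labels do not state whether replicates came from separate groups of fish, and the p-values measure only the spread between these libraries.

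The libraries differed in cell type markers as well as in the genes of interest. All 4 MG markers (gfap, glulb, apoeb and sox2) were called lower in mutant than in Wt MG at 2 dpi, and their summed level was 2449 to 2980 CPM in uninjured Wt, 10953 to 11926 CPM in Wt at 2 dpi and 2506 to 3483 CPM in the mutant. Most of that sum was apoeb, at 2082 to 2457, 9289 to 9997 and 2140 to 2847 CPM in these groups. All 9 rod markers and all 10 cone markers were called higher in the mutant, with rod sums of 11165 to 19221, 1969 to 2356 and 10908 to 11995 CPM and cone sums of 41325 to 54730, 24650 to 24896 and 65872 to 67292 CPM in the same order of groups. Microglia and macrophage markers summed to 23.3 to 37.3, 44.9 to 65.8 and 128 to 138 CPM, and gad1b of GABAergic neurons was lower in the mutant. Of these 3 microglia and macrophage markers 2 were called higher in the mutant than in Wt at 2 dpi. The third, cd74a, was at 13.2 and 21.8 CPM in uninjured Wt, 3.32 and 9.11 CPM in Wt at 2 dpi and 21.8 and 9.19 CPM in the mutant. These markers were picked from the study's table of genes that changed in both comparisons of the same libraries, which is not a marker list, so their direction is no independent evidence. In such bulk libraries fewer cells of a type and less RNA per cell cannot be told apart, and the part of the shift in markers in the results below was not tested.

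**Figure D1:**
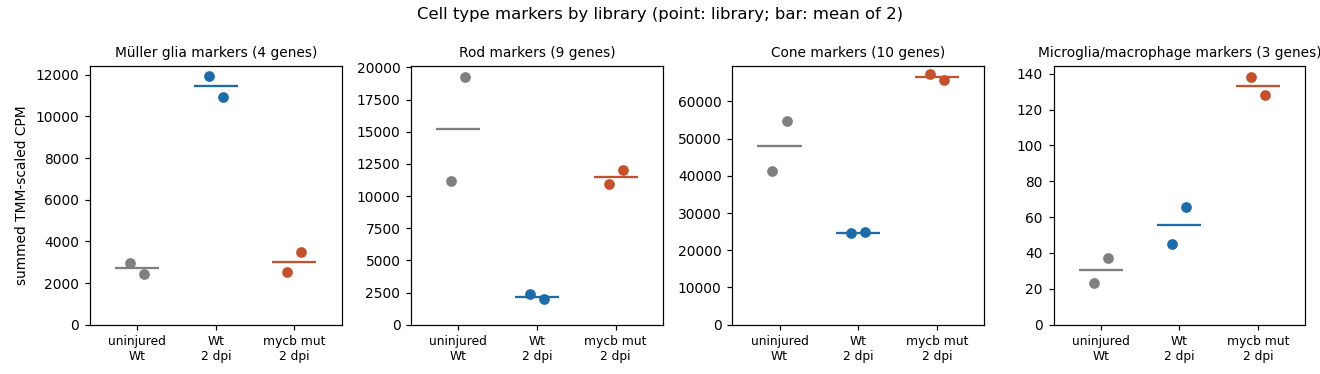
Summed TMM-scaled CPM of the markers of 4 cell types, with libraries as points and the mean of 2 libraries as a bar for uninjured Wt, Wt 2 dpi and mycb mutant 2 dpi. The MG markers of both mutant libraries lie near the uninjured level, at 2506 and 3483 CPM against 10953 and 11926 CPM in Wt at 2 dpi, and the rod markers show the reverse order.

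At 2 dpi, 10 of the 33 genes fell and 5 rose in mycb mutant MG relative to Wt MG, and 18 were not called. Over all genes tested 12.2% were called lower and 8.21% higher, 20.4% in all. The genes that fell were mostly those of the cell cycle itself, namely the cyclins ccnd1, ccne1, ccna2, ccnb1 and ccnf and the kinases cdk1 and cdk2, joined by the inhibitor cdkn1a, by ccng1 and by cdk15. The genes that rose were the CDK5 activators cdk5r2a and cdk5r2b, the inhibitor cdkn1d, the kinase cdk14 and the centrosomal gene cdk5rap2. Of the 5 rises, 1 was called without Wt 2 dpi replicate 1 or without mutant replicate 1, 2 without Wt 2 dpi replicate 2, and 1 with library size only. The median log2 fold change of the 33 genes was -0.50, against -0.13 over all genes tested. In 19 genes the mutant libraries were both under the range of injured Wt and in 5 both were over it, where 36.3% and 25.3% of all genes did so.

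The members had been selected by the study for a change with injury in these libraries, so their levels in Wt before and after injury are a description and no test. In Wt, injury was accompanied by a higher level in 21 of them and a lower level in 12, as in 19.2% and 17.4% of all genes (36.6% in either direction). Of the 21 genes higher with injury, 9 (42.9%) were lower in the mutant and 0 were higher by edgeR, by DESeq2 or at an unadjusted p under 0.05. Of all 3904 genes called higher with injury, 38.4% were lower in the mutant and 0.922% higher. Of the 12 genes lower with injury, 5 (41.7%) were higher in the mutant and 1 was lower, compared with 32.7% and 5.63% of all 3535 genes called lower with injury. The shares of the members were thus close to those of injury-responsive genes at large. Both comparisons use the Wt 2 dpi libraries, and a chance deviation of these libraries moves the changes with injury and with genotype in opposite directions.

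**Figure D2:**
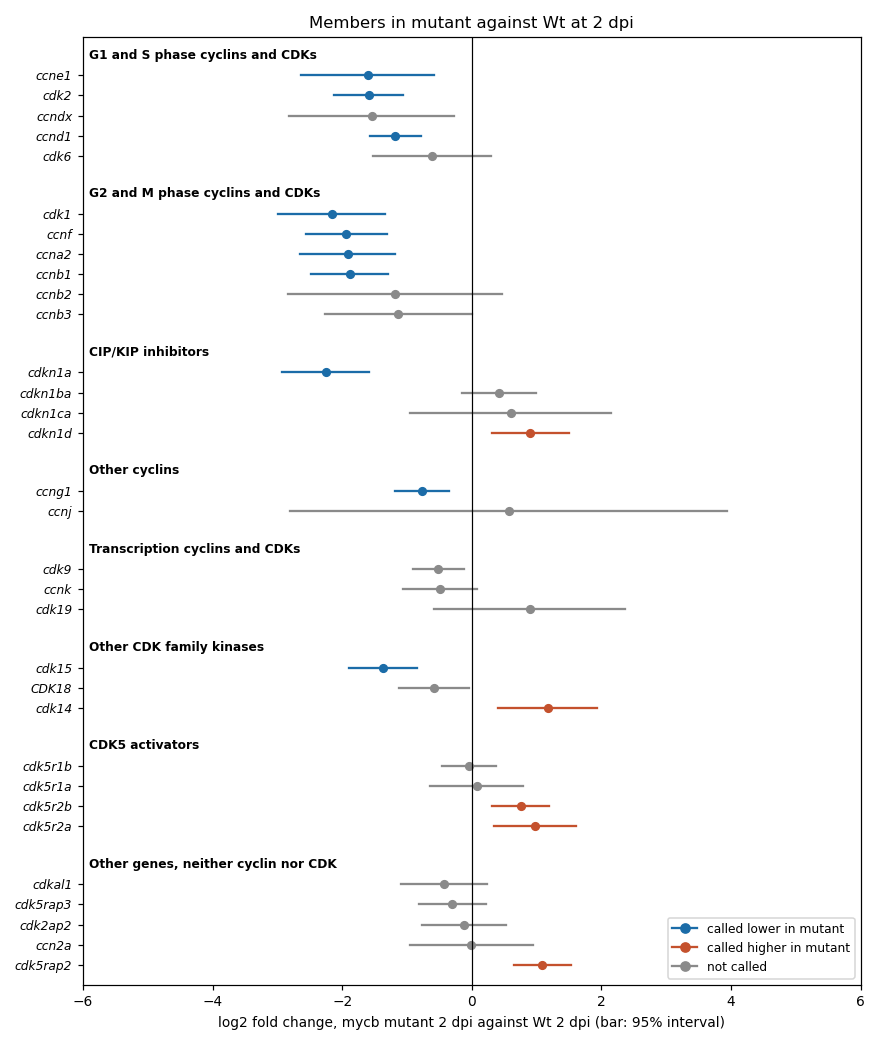
Log2 fold change of mycb mutant over Wt MG at 2 dpi for 32 of the 33 genes by role, with points for the estimates, bars for 95% intervals, and colours for the call. All 11 points of the G1 and S phase and the G2 and M phase groups lie to the left of 0, with 7 of them called lower, and the 4 CDK5 activators lie between -0.05 and 0.98.

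Of the role groups, the cyclins and the kinase of G2 and M phase had the lowest median in the mutant. All 6 of its genes were lower in both mutant libraries than in both Wt 2 dpi libraries, 4 of them were called lower, and the median log2 fold change was -1.90. Over all genes tested, 36.3% were lower without overlap and 12.2% were called lower. The mutant mean ranged from 22.3% of the Wt 2 dpi mean for cdk1 to 45.6% for ccnb3. All 6 remained above the uninjured level, by log2 fold changes of at least 2.33 (ccnf).

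The largest difference of the group was that of cdk1 (ENSDARG00000087554), the kinase that drives entry into mitosis. Its level was 0.0842 and 0.423 CPM in uninjured Wt, 70.2 and 74.0 CPM in Wt at 2 dpi and 20.3 and 11.8 CPM in the mycb mutant. The 3 groups did not overlap, and the mutant libraries, though lower than Wt, were far above the nearly silent uninjured ones (log2 fold change -2.16, SE 0.37, adjusted p = 0.00372). The cdk1 counts of uninjured Wt were only 5 and 23.

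Its partner ccnb1 (ENSDARG00000051923), the main mitotic cyclin B, was at 1.99 and 1.03 CPM in uninjured Wt, 82.1 and 78.2 CPM in Wt at 2 dpi and 24.4 and 19.1 CPM in the mycb mutant. Both mutant libraries lay well below both Wt libraries, with little spread within either group (log2 fold change -1.88, SE 0.27, adjusted p = 0.00190). The cyclin A gene ccna2 (ENSDARG00000011094), which acts in both S phase and G2, was at 0.893 and 2.48 CPM in uninjured Wt, 149 and 137 CPM in Wt at 2 dpi and 40.3 and 35.5 CPM in the mycb mutant. Again the groups did not overlap (log2 fold change -1.92, SE 0.33, adjusted p = 0.00366). The level in the mutant was 27.1% of that in Wt for ccnb1 and 26.5% for ccna2.

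The gene ccnf (ENSDARG00000105046) encodes cyclin F, an F-box protein that directs a ubiquitin ligase and does not activate a CDK. It was at 1.31 and 2.3 CPM in uninjured Wt, 35.3 and 34.2 CPM in Wt at 2 dpi and 10.1 and 8.06 CPM in the mycb mutant. Both mutant libraries were far below both Wt libraries, with a mean of 26.1% of theirs (log2 fold change -1.94, SE 0.28, adjusted p = 0.00198). The other B-type cyclins, ccnb2 and ccnb3, were in the same order of groups but were not called. The level of ccnb2 (ENSDARG00000036180) was 0.168 and 0 CPM in uninjured Wt, 4.52 and 6.48 CPM in Wt at 2 dpi and 2.58 and 2.24 CPM in the mycb mutant, with a mutant log2 fold change of -1.19 (95% interval -2.84 to 0.46, adjusted p = 0.300). The level of ccnb3 (ENSDARG00000034855) was 0.337 and 1.31 CPM in uninjured Wt, 12.1 and 12.5 CPM in Wt at 2 dpi and 7.14 and 4.04 CPM in the mycb mutant, with a mutant log2 fold change of -1.13 (95% interval -2.27 to 0.0039, adjusted p = 0.150). No library had more than 372 reads of ccnb2 or 797 of ccnb3. Replicates of ccnb3 were apart, with 337 and 179 reads in the mutant and 20 and 71 in uninjured Wt. Without uninjured Wt replicate 1 and with no filter on low counts ccnb3 was called (log2 fold change -1.13 in both), and its adjusted p ranged from 0.0120 to 0.574 over 16 alternatives.

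**Figure D3:**
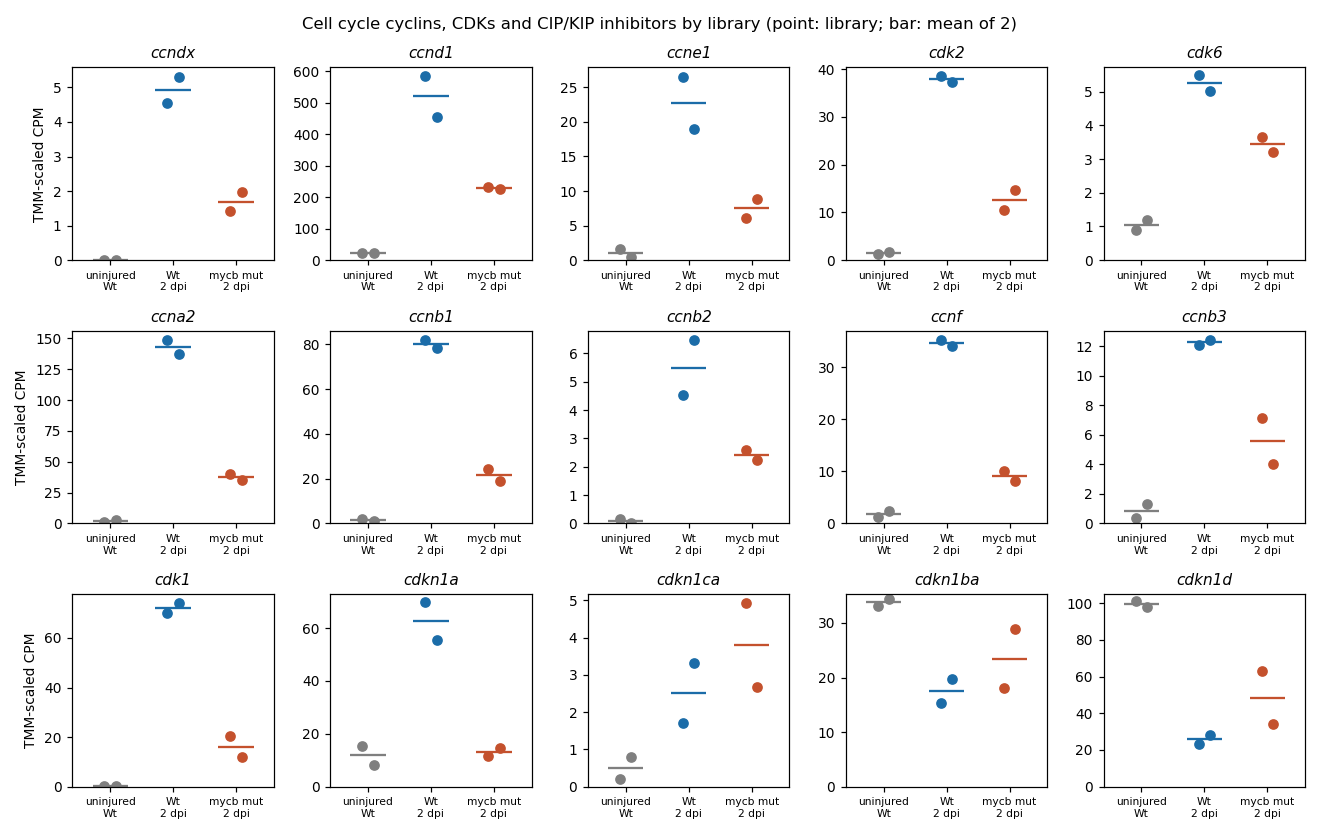
TMM-scaled CPM in every library for the 15 cell cycle cyclins, CDKs and CIP/KIP inhibitors, each on its own axis from 0, with points for libraries and a bar for the mean of 2. In all 11 cyclins and CDKs the mutant libraries lie between uninjured Wt and Wt at 2 dpi, while cdkn1a of the mutant, at 11.8 and 14.5 CPM, lies within the range of the uninjured libraries.

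Among the cyclins and CDKs of G1 and S phase, all 5 genes were lower in both mutant libraries than in both Wt 2 dpi libraries and 3 were called, with a median log2 fold change of -1.54. The shares over all genes were again 36.3% and 12.2%. The G1 cyclin ccnd1 (ENSDARG00000101637) was at 23.7 and 23.8 CPM in uninjured Wt, 584 and 456 CPM in Wt at 2 dpi and 234 and 226 CPM in the mycb mutant. The Wt 2 dpi libraries differed from each other by more than the mutant libraries did, yet both stood above them (log2 fold change -1.18, SE 0.18, adjusted p = 0.00231). The mutant mean of ccnd1 was 44.2% of the Wt mean.

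The gene cdk2 (ENSDARG00000026577), the kinase of S phase, was at 1.35 and 1.62 CPM in uninjured Wt, 38.5 and 37.3 CPM in Wt at 2 dpi and 10.4 and 14.7 CPM in the mycb mutant. The 3 groups did not overlap (log2 fold change -1.59, SE 0.24, adjusted p = 0.00221). Its activating cyclin ccne1 (ENSDARG00000098622) was at 1.57 and 0.423 CPM in uninjured Wt, 26.6 and 19.0 CPM in Wt at 2 dpi and 6.14 and 8.81 CPM in the mycb mutant, again with the mutant libraries below both Wt libraries (log2 fold change -1.61, SE 0.46, adjusted p = 0.0338). The call of ccne1 was lost without Wt 2 dpi replicate 1 (log2 fold change -1.34), without mutant replicate 1 (-1.37) and without mutant replicate 2 (-1.73), and its adjusted p ranged from 2.27e-06 to 0.168 over 16 alternatives.

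The D-type cyclin gene ccndx (ENSDARG00000019741) had 0 counts in both uninjured libraries, 4.55 and 5.31 CPM in injured Wt and 1.42 and 1.97 CPM in the mutant. With 3 counts per library taken as the limit of detection, its mean level was at least 93.3-fold higher than uninjured in Wt and at least 32.0-fold higher in the mutant. The groups did not overlap, but the mutant log2 fold change of -1.54 (95% interval -2.82 to -0.27, adjusted p = 0.0883) was not called. Without uninjured Wt replicate 1 it was called at an unaltered log2 fold change of -1.54, and its adjusted p ranged from 0.0481 to 0.280 over 16 alternatives. The kinase gene cdk6 (ENSDARG00000070228), a partner of D-type cyclins, was at 0.909 and 1.18 CPM in uninjured Wt, 5.49 and 5.02 CPM in Wt at 2 dpi and 3.67 and 3.21 CPM in the mycb mutant. Its mutant libraries lay below those of Wt, at 65.4% of the mean, and the difference was not called, with a log2 fold change of -0.61 (95% interval -1.53 to 0.30, adjusted p = 0.337).

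Over these 11 cell cycle cyclins and CDKs the mutant level was 22.3 to 65.4% of Wt at 2 dpi, with a median of 33.2%, and 7 genes (63.6%) were called lower. Of all genes called higher with injury, 38.4% were called lower in the mutant. The median log2 fold change of the 11 genes was -1.59, beside -0.70 for all genes higher with injury and -1.85 for the 4 MG markers. With injury in Wt the medians of these sets were 4.67, 1.53 and 2.10 in the same order. The sets thus differed in the size of their rise as well, and its part in the fall was not tested. Relative to uninjured Wt, all 11 cyclins and CDKs were called higher in the mutant, with log2 fold changes of at least 1.72. Over all genes tested, 12.2% were called higher in that comparison. The 4 MG markers had log2 fold changes of -0.34 to 0.33 in it. These markers were picked from genes that changed both with injury and in the mutant, so their values are no independent evidence. Of the 11 calls of cyclins and CDKs only that of cdk6 was lost with a library left out, without uninjured replicate 1 (log2 fold change 1.54) or mutant replicate 1 (1.62). The comparison with uninjured Wt shares its control libraries with the one on which the genes were selected.

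The 4 CIP/KIP inhibitors did not move together. The p21 gene cdkn1a (ENSDARG00000076554), a target of p53 that arrests cells in G1, was at 15.6 and 8.28 CPM in uninjured Wt, 69.8 and 55.3 CPM in Wt at 2 dpi and 11.8 and 14.5 CPM in the mycb mutant. Of all 33 genes it had the largest fall in the mutant, to 21.0% of Wt (log2 fold change -2.25, SE 0.30, adjusted p = 0.00150). The mutant libraries lay within the range of the uninjured ones, and the log2 fold change between mutant and uninjured Wt was 0.14 (95% interval -0.51 to 0.79, adjusted p = 0.785). That small difference turned negative with library size only (-0.0072) and without uninjured replicate 2 (-0.082).

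The opposite order was seen for cdkn1d (ENSDARG00000099719), a further CIP/KIP gene of fish. It was at 101 and 97.9 CPM in uninjured Wt, 23.4 and 28.4 CPM in Wt at 2 dpi and 63.1 and 33.9 CPM in the mycb mutant. Both mutant libraries lay above both Wt 2 dpi libraries and below both uninjured ones, but the mutant replicates were far apart (log2 fold change 0.90, SE 0.27, adjusted p = 0.0386). The call was lost without Wt 2 dpi replicate 1 (log2 fold change 0.77), Wt 2 dpi replicate 2 (1.05) or mutant replicate 1 (0.39), and with library size only (0.80). Its adjusted p ranged from 1.73e-04 to 0.287 over 16 alternatives.

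A p27 gene, cdkn1ba (ENSDARG00000029018), associated with quiescence, was at 33.2 and 34.3 CPM in uninjured Wt, 15.3 and 19.8 CPM in Wt at 2 dpi and 18.1 and 28.9 CPM in the mycb mutant. The mutant libraries overlapped those of Wt at 2 dpi, and the log2 fold change was 0.42 (95% interval -0.14 to 0.98, adjusted p = 0.283). Another gene with the p27 symbol, CDKN1B (ENSDARG00000054271), is not a member. It was not called with injury in Wt (log2 fold change 0.10) or in the mutant (-0.18, 95% interval -0.62 to 0.26, adjusted p = 0.578). The p57 gene cdkn1ca (ENSDARG00000010878) was at 0.219 and 0.810 CPM in uninjured Wt, 1.70 and 3.33 CPM in Wt at 2 dpi and 4.94 and 2.67 CPM in the mycb mutant, and mutant and Wt libraries overlapped here too, with a log2 fold change of 0.60 (95% interval -0.96 to 2.15, adjusted p = 0.607). Thus with injury in Wt cdkn1a and cdkn1ca were higher while cdkn1ba and cdkn1d were lower, and in the mutant cdkn1a fell and cdkn1d rose.

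The remaining cyclins were ccng1 and ccnj. The gene ccng1 (ENSDARG00000076667), a p53 target whose product does not drive the cycle, was at 148 and 155 CPM in uninjured Wt, 478 and 459.6 CPM in Wt at 2 dpi and 232 and 318 CPM in the mycb mutant. Mutant libraries lay between uninjured and injured Wt without overlap, and ccng1 was called lower (log2 fold change -0.77, SE 0.19, adjusted p = 0.0181). Its call was lost without Wt 2 dpi replicate 1 (log2 fold change -0.74), Wt 2 dpi replicate 2 (-0.80) or mutant replicate 1 (-0.56), with an adjusted p of 0.00105 to 0.107 over 16 alternatives. In contrast to cdkn1a, ccng1 stayed above the uninjured level in the mutant (log2 fold change 0.86, SE 0.19, adjusted p = 0.00802).

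Cyclin J, encoded by ccnj (ENSDARG00000059917), was close to the limit of detection. It had 0 counts in both uninjured libraries, 15 and 59 in injured Wt, and 56 and 30 in the mutant. The injured groups overlapped, and the log2 fold change between them was 0.57 (95% interval -2.80 to 3.94, adjusted p = 0.843), which turned negative without Wt 2 dpi replicate 1. Against 3 counts per uninjured library its mean level was at least 11.9-fold higher in Wt and at least 17.6-fold higher in the mutant. The bound in Wt was 19.4-fold without Wt 2 dpi replicate 1 and 4.3-fold without replicate 2.

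The 4 CDK5 activators are subunits that switch on CDK5, a kinase of postmitotic neurons that is not needed for division. All 4 were lower in injured than in uninjured Wt MG, and 2 of them rose in the mutant. Of all genes called lower with injury 32.7% were called higher in the mutant, and of all genes tested 8.21%. The gene cdk5r2a (ENSDARG00000071011) was at 22.03 and 30.1 CPM in uninjured Wt, 4.56 and 6.76 CPM in Wt at 2 dpi and 12.8 and 9.46 CPM in the mycb mutant. The mutant libraries stood between the other groups without overlap (log2 fold change 0.98, SE 0.29, adjusted p = 0.0375). Its paralog cdk5r2b (ENSDARG00000078671) was at 160.4 and 213 CPM in uninjured Wt, 113 and 129 CPM in Wt at 2 dpi and 223 and 184 CPM in the mycb mutant. Both mutant libraries were above both Wt 2 dpi libraries and overlapped the uninjured ones (log2 fold change 0.75, SE 0.20, adjusted p = 0.0238).

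Both calls depended on single libraries. That of cdk5r2a was lost without Wt 2 dpi replicate 1 (log2 fold change 0.72) or mutant replicate 1 (0.74), with an adjusted p of 0.00264 to 0.224 over 16 alternatives. That of cdk5r2b was lost without Wt 2 dpi replicate 1 (0.66), Wt 2 dpi replicate 2 (0.85) or mutant replicate 1 (0.61), with an adjusted p of 3.59e-04 to 0.173. Both were also lost with library size only, at log2 fold changes of 0.86 and 0.63. Beside these rises, the photoreceptor markers were higher in the mutant, with median log2 fold changes of 2.47 for rods and 1.5 for cones, and the neuronal gene gad1b was lower (-0.77). The part of retinal neurons in these values was not tested.

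The p35 genes cdk5r1a and cdk5r1b were not called in the mutant. The level of cdk5r1b (ENSDARG00000045087) was 49.5 and 51.9 CPM in uninjured Wt, 16.3 and 14.5 CPM in Wt at 2 dpi and 15.6 and 14.2 CPM in the mycb mutant, so that mutant and Wt libraries overlapped far below the uninjured level, and the log2 fold change between them was -0.05 (95% interval -0.47 to 0.37, adjusted p = 0.894). The level of cdk5r1a (ENSDARG00000037916) was 11.9 and 15.2 CPM in uninjured Wt, 5.90 and 4.34 CPM in Wt at 2 dpi and 6.59 and 4.22 CPM in the mycb mutant, with a log2 fold change of 0.08 (95% interval -0.64 to 0.80, adjusted p = 0.903). The interval for cdk5r1b excludes a rise as large as that estimated for either cdk5r2 gene, and the interval for cdk5r1a does not exclude one as large as that of cdk5r2b. The signs of both small differences changed with the scaling.

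The other CDK family kinases cdk15, cdk14 and CDK18 were lower in injured than in uninjured Wt but went apart in the mutant. The gene cdk15 (ENSDARG00000006093), a kinase of the PFTAIRE group, was at 77.6 and 67.5 CPM in uninjured Wt, 32.0 and 34.3 CPM in Wt at 2 dpi and 15.7 and 9.92 CPM in the mycb mutant. The mutant libraries were the lowest of the 6, below those of injured Wt, which were in turn below uninjured Wt (log2 fold change -1.37, SE 0.23, adjusted p = 0.00361). Of the members lower with injury it was the only one called lower again in the mutant, and its call held under all 16 alternatives. Between mutant and uninjured Wt the log2 fold change was -2.50.

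Its PFTAIRE relative cdk14 (ENSDARG00000074665), a kinase that works with cyclin Y at the cell membrane, was at 6.40 and 6.11 CPM in uninjured Wt, 2.74 and 2.16 CPM in Wt at 2 dpi and 5.23 and 5.83 CPM in the mycb mutant. Mutant libraries were above both Wt 2 dpi libraries and a little below the uninjured ones (log2 fold change 1.17, SE 0.34, adjusted p = 0.0369). The call was lost when any of the injured libraries was left out, at log2 fold changes of 1.36 and 1.01 without Wt 2 dpi replicates 1 and 2 and 1.25 without either mutant replicate, and with library size only (1.04). Its adjusted p ranged from 0.0173 to 0.144 over 16 alternatives. The PCTAIRE kinase gene CDK18 was lower in both mutant libraries than in both Wt 2 dpi libraries and was not called, with a log2 fold change of -0.58 (95% interval -1.12 to -0.05, adjusted p = 0.121).

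Among the 3 genes of transcription, 0 were called in the mutant by edgeR or DESeq2 and 1, cdk9, was lower at an unadjusted p under 0.05. By edgeR 20.4% of all genes tested were called. The gene cdk9, the kinase that releases paused RNA polymerase, was at 33.4 and 41.6 CPM in uninjured Wt, 63.4 and 64.3 CPM in Wt at 2 dpi and 43.2 and 46.1 CPM in the mycb mutant, with a log2 fold change of -0.52 (95% interval -0.91 to -0.12, adjusted p = 0.0670). It was called with library size only (-0.65) and among genes with a mean above 1 CPM (-0.53). The gene ccnk, whose product partners transcriptional CDKs, differed by -0.50 (95% interval -1.07 to 0.07, adjusted p = 0.207). The gene cdk19, a kinase of the Mediator complex, was at 7.56 and 7.93 CPM in uninjured Wt, 0.803 and 2.94 CPM in Wt at 2 dpi and 5.32 and 1.60 CPM in the mycb mutant and differed by 0.89 (95% interval -0.58 to 2.36, adjusted p = 0.389). The libraries of cdk19 spread widely in both injured groups, and the log2 fold change turned to -0.22 without mutant replicate 1.

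A last group of 5 genes encodes neither a cyclin nor a CDK. The symbols of 4 of them refer to a CDK, and ccn2a shares only the letters of its symbol with the cyclins. Of these, cdk5rap2 (ENSDARG00000024219), which encodes a centrosomal protein that anchors microtubule nucleation, was at 69.2 and 78.1 CPM in uninjured Wt, 38.1 and 31.9 CPM in Wt at 2 dpi and 85.0 and 63.8 CPM in the mycb mutant. Wt libraries at 2 dpi were the lowest, and the mutant libraries spanned the uninjured range (log2 fold change 1.09, SE 0.20, adjusted p = 0.00483). This was the only one of the 5 rises that was called under all 16 alternatives. Mutant and uninjured Wt differed by a log2 fold change of 0.01 (95% interval -0.42 to 0.45, adjusted p = 0.973), the sign of which changed with library size only, with a replicate block and with a library left out.

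The other 4 genes of this group were higher in injured than in uninjured Wt and were not called in the mutant. They were ccn2a, a secreted matricellular factor also known as connective tissue growth factor (-0.01, 95% interval -0.96 to 0.94, adjusted p = 0.991), cdk2ap2, a subunit of a chromatin remodelling complex (-0.12, 95% interval -0.78 to 0.53, adjusted p = 0.830), cdk5rap3, which takes part in protein UFMylation (-0.30, 95% interval -0.81 to 0.22, adjusted p = 0.413), and cdkal1, a tRNA-modifying enzyme (-0.43, 95% interval -1.10 to 0.24, adjusted p = 0.357). The first values in parentheses are log2 fold changes between mutant and Wt at 2 dpi.

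Set against uninjured Wt, the mutant at 2 dpi had 16 of the 33 genes higher and 7 lower, where 12.2% and 13.4% of all genes were, 25.6% in all. The members were selected for a change from these same uninjured libraries, so shares above those of all genes are no test. All 16 were among the 21 that were higher with injury in Wt, and all 7 among the 12 that were lower. The 21 genes had a median log2 fold change over uninjured MG of 3.57 in Wt, with the genes absent from uninjured MG at their limit, and of 2.77 in the mutant. The 12 genes had medians of -1.25 and -1.19. For all genes called higher with injury the medians in Wt and in the mutant were 1.53 and 0.82, and for all called lower -1.19 and -0.77. Only 4 genes were called lower in the mutant without uninjured replicate 2 or without mutant replicate 2. Genes not called between mutant and uninjured Wt were cdkn1a, ccnk, cdk9, cdk5rap3 and cdkal1 among the first and cdk5r2b, cdk5rap2, cdk14, cdkn1ba and cdk19 among the second. These 10 intervals do not show that the mutant was at the uninjured level.

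**Figure D4:**
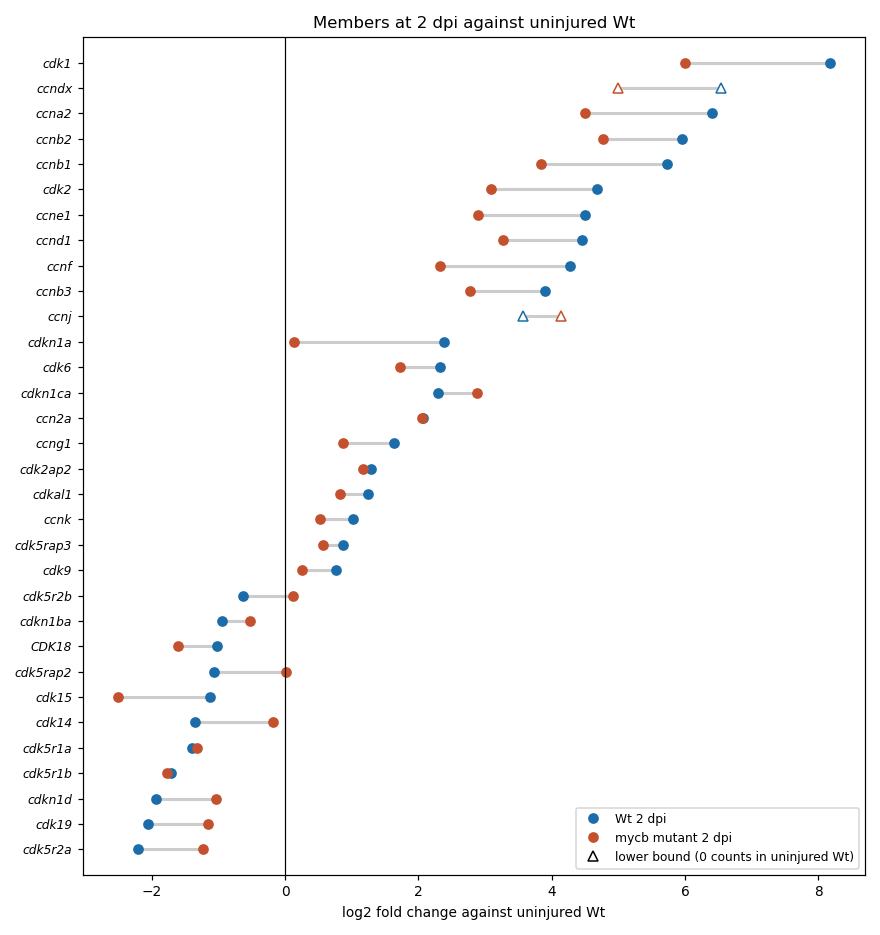
Log2 fold change against uninjured Wt of 32 of the 33 genes in Wt (blue) and mycb mutant (orange) MG at 2 dpi, ordered by the value in Wt, with triangles for lower bounds of the 2 genes with 0 counts in uninjured Wt. The cell cycle cyclins and CDKs lie far to the right in both. Among the 32 genes drawn, only cdk15 and CDK18 lie visibly further below 0 in the mutant than in Wt, at -2.50 and -1.61.

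Other cell cycle genes and other cyclin and CDK genes were compared in the same fit. A set of 6 genes that license or time replication and mitosis (cdc6, cdc7, cdc20, cdc25b, cdt1 and gmnn), also listed by the study for an injury response, had 5 genes lower in the mutant and a median log2 fold change of -1.55. They were picked by name from the study's lists of DNA replication and cell division cycle genes. Of all genes called higher with injury, 38.4% were called lower in the mutant. The range of the 6 genes was -1.85 for cdc6, which loads the replicative helicase, to -0.71 for cdc25b, the phosphatase that activates CDK1. Leaving out a library reduced the 5 calls to 2 without Wt 2 dpi replicate 1, mutant replicate 1 or mutant replicate 2, and to 3 without Wt 2 dpi replicate 2. The gene not called was cdc7, the kinase that fires replication origins (-1.49, 95% interval -3.06 to 0.08, adjusted p = 0.169).

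A further 9 genes are listed by the study only for its other mutant experiment, and so are absent from the list of injury-responsive genes made from the libraries used here. Few calls with injury follow from that absence, and their response in Wt is given as a description. Of these, 8 had a positive log2 fold change with injury in Wt and 1 passed the call thresholds, cdkn2aipnl, at 17.6 and 16.5 CPM in uninjured Wt and 26.7 and 24.6 CPM in Wt at 2 dpi (log2 fold change 0.59, SE 0.19). It no longer passed when any of the 4 Wt libraries was left out, at log2 fold changes of 0.64 and 0.57 without uninjured replicates 1 and 2 and 0.53 and 0.65 without Wt 2 dpi replicates 1 and 2. The others ranged from -0.50 for cdk17, a PCTAIRE kinase, to 0.77 for cdkn1cb, another p57 gene. The value of cdkn1cb was imprecise (95% interval -1.41 to 2.96), with 80 and 14 counts in uninjured Wt and 116 and 57 in Wt at 2 dpi. Between these values were ccne2, a cyclin E, at 0.67, cdk8 of Mediator at 0.44, ccnl1a and cdk11b of RNA splicing at 0.42 and 0.32, and cdk12 of transcription elongation at 0.24. In the mutant 1 of the 9 was called, where 20.4% of all genes tested were. This was cdk7, the kinase that activates other CDKs and serves in general transcription. It was at 10.7 and 11.96 CPM in uninjured Wt, 13.7 and 15.7 CPM in Wt at 2 dpi and 24.0 and 27.7 CPM in the mycb mutant, with both mutant libraries above the rest (log2 fold change 0.81, SE 0.21, adjusted p = 0.0229). This call was lost when any of the 4 injured libraries was left out. Cyclin E was thus split, with ccne1 lower in the mutant and ccne2 at a log2 fold change of 0.21 (95% interval -0.42 to 0.85, adjusted p = 0.662).

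The remaining cyclin and CDK genes that the name table pairs with a symbol were 31, of which 28 were tested. Between mutant and Wt at 2 dpi, 2 were called higher, CDK20 and CCNJL (log2 fold changes 0.85 and 1.36), where 8.21% of all genes tested were. By edgeR 0 were called lower, where 12.2% of all genes tested were. With DESeq2 0 were called lower as well, and 1 was lower at an unadjusted p under 0.05. Neither CDK20 nor CCNJL was called without Wt 2 dpi replicate 1, Wt 2 dpi replicate 2 or mutant replicate 1, or with library size only. The median of the 28 genes was 0.12. This set holds what is left once the genes listed by the study are taken out, and was formed after the count table had been seen. With injury in Wt, 3 of its genes were called lower, where 17.4% of all genes tested were. They were CCNG2 (log2 fold change -0.64), CCNT2 (ENSDARG00000036685, -0.84) and CCNI (-0.61). It includes CDK4, the other partner of D-type cyclins, which was between 2.01 and 3.74 CPM in all 6 libraries.

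**Figure D5:**
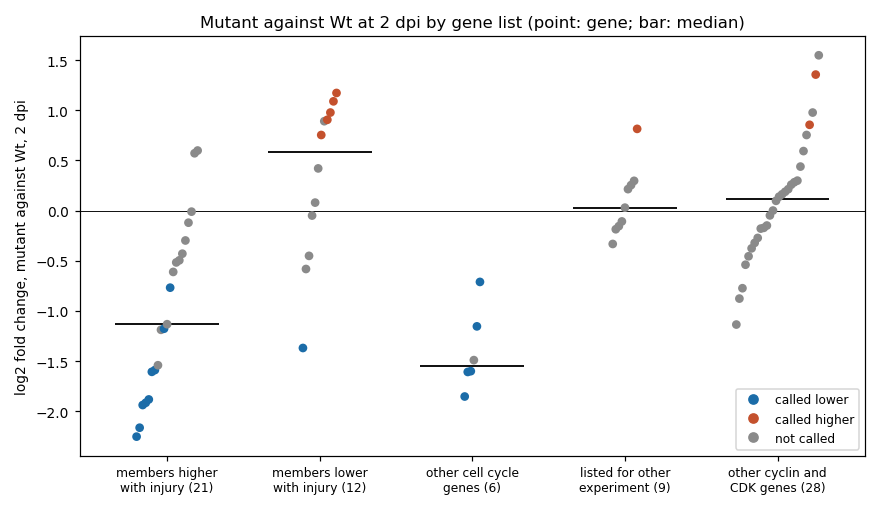
Log2 fold change of mycb mutant over Wt MG at 2 dpi for each gene of 5 sets, with bars for medians and colours for the call. Genes higher with injury lie mostly below 0 (median -1.13), genes lower with injury mostly above it (0.59), the 6 other cell cycle genes are all below it (-1.55), and the remaining cyclin and CDK genes scatter around it (0.12).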

How the data were processed

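The deposited counts are whole numbers of reads per Ensembl gene, without normalization. Reads were mapped by the authors to GRCz11. The submitters' processing notes name cutadapt 2.3, FastQC 0.11.8, STAR 2.7.8a, RSEM 1.3.3 and DESeq2, and GRCh38 beside GRCz11. RSEM gives estimated counts, so the counts may have been rounded. How reads shared by paralogs were divided and whether strand was used are not given in the sources used here.

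Samples were grouped by title. The members have printed identifiers in the cyclin and CDK sheets of a supplementary table, and 31 of the 33 are also listed for the other mutant experiment, whose libraries were not used here. The members, the role groups and the other gene lists were chosen with earlier results of these data known. Of the members, 32 are named and 1 is not reported here singly, though it stays in counts and medians. Named members are given with values of every library for those called between mutant and Wt at 2 dpi and for cell cycle cyclins, CDKs and CIP/KIP genes. Those of cdk9, cdk19, cdk5r1a, cdk5r1b, cdk7 and CDK4, and the fold changes of CCND2, were added after their values were seen. Symbols in capitals come from a table that names 21982 of 23510 genes. In it 2 identifiers carry the symbol MYC, so the mutated gene was not used here to check the labels. The 27 markers were paired with identifiers by mean count and fold changes.

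Counts were filtered with filterByExpr (minimum count 10), given TMM factors, and modelled in edgeR 4.0.16 (quasi-likelihood, R 4.3.3), with all 6 libraries in one fit. P-values were adjusted by the Benjamini-Hochberg method. The thresholds follow the study's methods without its FPKM threshold, which needs gene lengths. SEs are the absolute log2 fold change over the square root of the F statistic. The scripts were tested on simulated counts. There edgeR called 71 of 100 genes changed by a log2 fold change of 2 and 17 of 100 changed by 1, and 6 unchanged genes. DESeq2 called 81, 45 and 76. Genes that were not called may therefore still differ. Fold changes of ccndx and ccnj against uninjured Wt are bounds from 3 counts per library. Replicates differed by more than counting noise, and at this depth the spread between 2 libraries limits precision for all but the rarest genes. Alternatives were RLE factors, library size only, TMM without photoreceptor markers, DESeq2 1.42.0, other filters and thresholds, the compared groups alone, a block for the replicate number, and every library left out in turn. Planned comparisons of promoter and protein sequences were not made, since no sequence table was used here.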

Additional observations from a re-analysis of the deposited data

How the results depend on the processing

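Of the 15 calls between mutant and Wt at 2 dpi, those of ccna2, ccnb1, ccnd1, ccnf, cdk1, cdk2, cdkn1a, cdk15 and cdk5rap2 held under all 16 alternatives. The number of members called lower was 8 to 12 with a library left out and 9 to 11 otherwise, and the number called higher was 1 with library size only, 2 with an absolute log2 fold change above 1, and 1 to 5 with a library left out (1 without Wt 2 dpi replicate 1 or mutant replicate 1, 2 without Wt 2 dpi replicate 2). Against uninjured Wt, 4 to 7 members were lower with a library left out, with 4 without uninjured replicate 2 or mutant replicate 2, and 12 to 16 were higher. Over all genes, 1596 were lower and 1031 higher in the mutant with a log2 fold change above 1, and 1179 to 2711 and 767 to 2167 with a library left out. The share of calls that were lower was 59.8%, 71.8% with library size only, 52.8% with RLE factors, 52.4% with DESeq2, 49.1% with the compared groups alone and 42.3% to 61.4% with a library left out, the lowest without mutant replicate 2 and the next, 49.2%, without uninjured replicate 2. Library size only moved the median log2 fold change of all genes from -0.13 to -0.25, and the compared groups alone to 0.02, and those of the members from -0.50 to -0.63 and -0.35. Of the 9 genes of the other experiment, those higher with injury were 2 without a filter, 0 with a log2 fold change above 1 and 0 to 1 with a library left out. The cause of these changes was not tested.

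The replicate numbers share no stated origin, and deviations of same-numbered libraries correlated at -0.007, 0.018 and -0.044. With a replicate block the members called in the mutant were again 10 lower and 5 higher. No member that was called changed direction. Signs of values that were not called reversed for ccn2a (0.066 with RLE factors and with DESeq2, 0.13 with the compared groups alone, -0.41 to 0.46 with a library left out), cdk5r1b (0.026 with RLE factors and with DESeq2, 0.094 with the compared groups alone, -0.13 to 0.18), cdk2ap2 (0.020 with the compared groups alone, -0.43 to 0.23), cdk5r1a (-0.030 with library size only, -0.28 to 0.52), ccnj (-0.14 to 2.02) and cdk19 (-0.22 to 2.11) against Wt at 2 dpi. They also reversed for cdkn1a (-0.0072 with library size only, -0.082 to 0.66), cdk5rap2 (-0.086 with library size only, -0.0025 with the block, -0.21 to 0.37) and cdk5r2b (-0.065 to 0.51) against uninjured Wt. Each range is over libraries left out.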
